A study of Mus musculus with 14 samples.

Results

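The Pccb to Ppp2r3a segment is a stretch of 260 kb on chromosome 9 of the mouse from 101.00 Mb to 101.26 Mb in GRCm38, downstream of Stag1. Its contacts with 3 fixed sites near and inside Stag1 were read from UMI-4C libraries. UMI-4C ligates crosslinked chromatin that was cut with a restriction enzyme and sequences the fragments joined to 1 chosen site, the bait. Molecules are told apart by where they were sheared, which serves as a unique molecular identifier (UMI), and PCR copies of 1 molecule count once. A member of the segment was any restriction fragment end in this interval that was joined to a bait in at least 1 of the 14 libraries. By this rule 1023 fragment ends were found, of 116782 distinct ends in the whole series, and of the 1206 ends that the 603 GATC sites of the segment could give (84.8%). They held 12554 UMIs, which is 11.9% of the 105306 UMIs that lay between 10 kb and 1 Mb from a bait in all libraries.

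All libraries came from untreated mouse cells. The embryonic stem cells (ESC) were held in the naive state by 2i medium and LIF, and the neural stem cells (NSC) were kept in EGF and FGF. Nanog bait 1 gave 4 ESC and 3 NSC libraries, Nanog bait 2 gave 3 ESC libraries and 1 NSC library, and the CTCF bait gave 2 ESC libraries and 1 NSC library. No strain, passage, age or cell line is given in the labels, and UMI-4C measures no expression, so the cell types could not be checked against marker genes. Both Nanog baits lie in introns of Stag1 and the CTCF bait is intergenic. What the words Nanog and CTCF stand for in these names is not given in the labels.

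Libraries held between 7172 and 51412 UMIs, of which 3221 to 24766 lay 10 kb to 1 Mb from the bait on either side and are called region UMIs. The segment held 272 to 3719 UMIs per library. At these depths, the share of the region that 3 UMIs make up was 0.0121% to 0.0931%. From bait 1, replicates 1 and 4 of ESC, replicates 2 and 3 of ESC, and replicates 1 and 3 of NSC shared 82.6% to 85.7% of the smaller library's ends on other chromosomes. These pairs were taken as repeats of 1 sample and averaged, which left n = 2 in each cell type for bait 1 and 11 independent samples in all. Weaker sharing, of 1.92% to 12.9%, tied 9 further pairs of libraries together. It divided the bait 1 samples into 2 batches, each with 1 ESC and 1 NSC sample, and tied the bait 2 NSC library to ESC replicate 1. No label names a batch, and the second rests on 1 tie, of ESC replicate 3 to NSC replicate 2 (3.81%). The 2 CTCF bait ESC libraries were tied to each other (2.44%) and to the NSC library, replicate 1 at 8.37% and replicate 2 at 1.92%. They are still counted here as separate samples. Nothing in the labels says that replicates came from separate cultures, so each p-value measures only the spread between these samples, which may be technical.

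Contacts between distant sites of a chromosome are shaped by cohesin, a ring complex that extrudes loops of chromatin and of which the Stag1 protein is a subunit, and by CTCF, a DNA-binding factor at which extrusion often stops. The number of contacts falls with distance from the bait, so a gene near the bait is captured more often than one farther away. The segment holds 3 protein-coding genes. Pccb encodes the beta subunit of propionyl-CoA carboxylase, a mitochondrial enzyme of propionate breakdown. Msl2 encodes a ubiquitin ligase subunit of the MSL complex, which acetylates histone H4. Ppp2r3a encodes a regulatory subunit of protein phosphatase 2A, a serine and threonine phosphatase.

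Pccb (ENSMUSG00000032527.13, chr9:100982032-101034898, minus strand) has 34.9 kb inside the segment, with its 5′ end at 101034898. Msl2 (ENSMUSG00000066415.4, chr9:101074101-101104800, plus strand) lies wholly inside it. Ppp2r3a (ENSMUSG00000043154.15, chr9:101105084-101251795, minus strand) covers 147 kb, more than any other gene of the segment. The longest Ppp2r3a transcript starts at 101251795 and a shorter protein-coding one at 101199073. The other 8 annotated genes are 6 unconfirmed transcripts (class TEC), 1 processed pseudogene and 1 snoRNA. The segment begins 380 kb from bait 1, 358 kb from bait 2 and 545 kb from the CTCF bait, so Pccb is the nearest of the 3 genes to every bait and Ppp2r3a the farthest.

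The bait fragments are shown first, since every value is a count of ligations to them. Each line gives the 120 bases of the GRCm38 plus strand at the ligated end of the fragment, with the GATC cut site in capitals. The sites are at chr9:100619987-100620106 for bait 1, chr9:100641581-100641700 for bait 2 and chr9:100455260-100455379 for the CTCF bait.
Nanog bait 1: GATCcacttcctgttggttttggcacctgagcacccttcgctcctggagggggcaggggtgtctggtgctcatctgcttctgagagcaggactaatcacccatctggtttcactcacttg
Nanog bait 2: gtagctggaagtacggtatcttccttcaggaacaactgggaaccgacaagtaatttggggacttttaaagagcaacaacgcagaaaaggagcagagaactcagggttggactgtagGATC
CTCF bait: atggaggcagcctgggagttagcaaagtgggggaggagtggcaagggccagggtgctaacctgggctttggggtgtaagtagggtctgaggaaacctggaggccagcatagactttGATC

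Coverage of single ends was sparse, at 1.16 to 3.94 UMIs per end seen, and 16.1% to 86.3% of the segment's ends in a library carried 1 UMI. Only 4 ends were seen in all 11 independent samples, and 41 were seen in 1. Of these 4, 3 lie in introns of Pccb within 8 kb of the segment's start, and the other lies between Pccb and Msl2. They are printed because no other end of the segment was captured from every bait in both cell types in every sample. Their positions are chr9:101002028-101002147, chr9:101003937-101004056, chr9:101007300-101007419 and chr9:101039743-101039862.
Pccb intron end at 101002030: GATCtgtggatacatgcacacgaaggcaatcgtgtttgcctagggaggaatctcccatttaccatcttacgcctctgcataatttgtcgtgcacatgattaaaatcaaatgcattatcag
Pccb intron end at 101003939: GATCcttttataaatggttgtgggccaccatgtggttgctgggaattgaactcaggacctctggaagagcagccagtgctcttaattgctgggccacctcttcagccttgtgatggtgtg
Pccb intron end at 101007302: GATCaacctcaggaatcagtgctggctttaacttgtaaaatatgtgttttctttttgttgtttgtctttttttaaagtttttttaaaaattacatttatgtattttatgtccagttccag
Intergenic end at 101039745: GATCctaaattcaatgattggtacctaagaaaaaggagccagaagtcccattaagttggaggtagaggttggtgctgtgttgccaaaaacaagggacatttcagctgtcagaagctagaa

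The end with the most UMIs differed between baits and cell types, and none held more than 0.778% of the segment's UMIs of its group. The Pccb intron end at 101002030 held the most in ESC from the CTCF bait, with 21 of 4364 UMIs, and 45 UMIs over all libraries. The leading end of the CTCF bait in NSC lay in an intron of Ppp2r3a, at 101160686, with 9 of 1386 UMIs. This end is shown as the one leading end inside Ppp2r3a (chr9:101160569-101160688).
Ppp2r3a intron end at 101160686: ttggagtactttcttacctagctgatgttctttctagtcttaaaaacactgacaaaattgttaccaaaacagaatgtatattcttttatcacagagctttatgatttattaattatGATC
From bait 1 in ESC, 2 ends between Pccb and Msl2 tied at 14 of 2652 UMIs. From bait 2 the leading ends were at 101003473, in a Pccb intron, with 8 of 1359 UMIs in ESC, and at 101075231, at the start of Msl2, with 6 of 771 UMIs in NSC. With so few UMIs per end, the order of single ends was not tested, and the results below rest on sums over genes and windows.

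The first comparison concerned how much of each bait's contact profile lay in the segment in ESC and in NSC. From bait 1 the segment held 9.07%, 7.91%, 8.20% and 9.19% of region UMIs in ESC replicates 1 to 4, and 12.1%, 11.6% and 12.2% in NSC replicates 1 to 3. Every NSC library was above every ESC library. The mean over independent samples was 8.59% in ESC (SD 0.762, n = 2) and 11.9% in NSC (SD 0.359, n = 2), which is 1.38-fold higher in NSC. The two-sided exact permutation test gave p = 0.333, the smallest that 2 samples against 2 allow. The NSC share was also higher within each batch, where ESC minus NSC was -3.02 percentage points in the first batch and -3.59 percentage points in the second.

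From bait 2 the share was 9.71%, 8.60% and 9.31% in the ESC libraries and 12.8% in the NSC library. The 95% Wilson interval of the NSC library was 11.9% to 13.6%, and those of the ESC libraries together spanned 7.68% to 10.4%. These intervals, like all intervals and floors given here, cover counting error only. ESC minus NSC was -3.56 percentage points from the ESC mean and -3.06 from ESC replicate 1, to which the NSC library is tied by shared ends. The CTCF bait shares were 15.0% and 15.1% for ESC and 15.9% for NSC. The NSC interval of 15.2% to 16.7% overlapped those of both ESC libraries. No test across samples was run on these shares for bait 2 and the CTCF bait, which have 1 NSC library each.

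These shares depend on what they are a share of. In NSC libraries fewer UMIs lay in the region and more lay farther away or on other chromosomes. For bait 1, the region held 47.2% ± 12.7 (SD, n = 2) of all UMIs over 10 kb from the bait in ESC, and in NSC 25.6% ± 2.62 (SD, n = 2). For bait 2 the region held 48.0% ± 9.85 (SD, n = 3) in ESC and 31.9% in NSC, and for the CTCF bait 57.6% ± 10.3 (SD, n = 2) and 43.0%. The gap was smaller from ESC replicate 1 of these 2 baits, the library most closely tied to the NSC library. This replicate held 36.9% for bait 2 and 50.3% for the CTCF bait. Taken over all these UMIs, the bait 1 segment share was 4.0% in ESC and 3.05% in NSC, so that the direction was opposite. By library the bait 1 values were 3.44%, 4.54%, 4.50% and 3.54% in ESC and 3.40%, 2.77% and 3.28% in NSC. The direction was also opposite over all UMIs from the CTCF bait, at 8.66% in ESC and 6.84% in NSC. For bait 2 the ESC libraries held 3.58%, 4.43% and 5.18%, with a mean of 4.40%, and the NSC library at 4.08% lay inside their range. It was below the ESC mean but above the tied ESC replicate 1, with ESC minus NSC at -0.495 percentage points. Higher in NSC is therefore said here of the UMIs within 1 Mb of the bait. UMIs per end also differed between libraries, and with each end counted once the bait 1 shares were 13.8% ± 1.47 and 15.0% ± 0.983 (SD, n = 2 each) and overlapped. For the CTCF bait, counting ends once gave 15.6% in ESC and 15.4% in NSC.

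**Figure D1:**
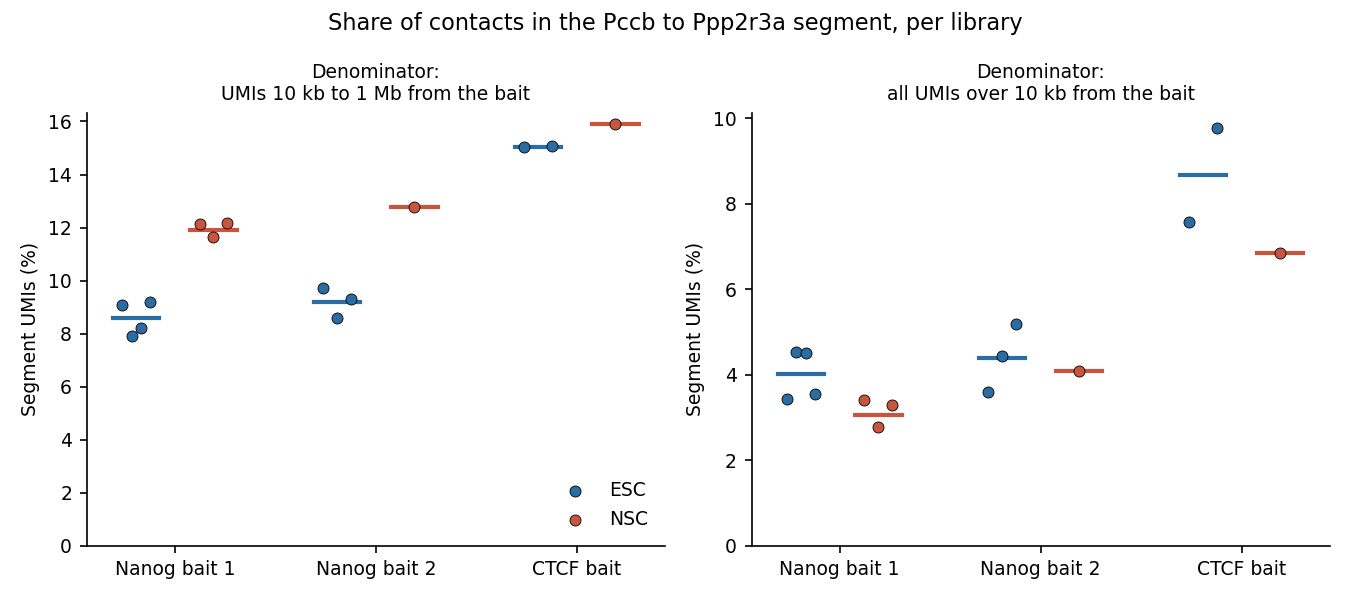
Percentage of UMIs in the segment for each library (points) by bait, with ESC in blue and NSC in red and lines at the mean of independent samples. On the left, as a share of UMIs 10 kb to 1 Mb from the bait, the bait 1 NSC libraries (11.6% to 12.2%) sit above the ESC libraries (7.91% to 9.19%), and on the right, as a share of all UMIs over 10 kb from the bait, they sit below them.

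By UMIs, the order of the baits was the same in both cell types. In ESC the CTCF bait, which is the farthest away, had the highest segment share (15.0% to 15.1%), above bait 2 (8.60% to 9.71%) and bait 1 (8.05% to 9.13% over independent samples). The ranges of baits 1 and 2, which lie 21.7 kb apart, overlapped. In NSC the shares were 15.9%, 12.8% and 11.6% to 12.2% in the same order. ESC minus NSC was -3.31 percentage points from bait 1, -3.56 from bait 2 and -0.880 from the CTCF bait. The size of the CTCF bait's lead depended on the UMIs near the bait. Over UMIs 100 kb to 1 Mb from the bait, the order of the means was the same, but the CTCF bait led by less. Its mean was then 20.35% in ESC against 15.98% for bait 1, and its NSC value 21.19% against 19.08%. The bait 2 values lay between these in both cell types. With each end counted once, the order differed between the cell types. The ESC mean was highest for the CTCF bait, at 15.6% against 13.8% for both other baits, with overlapping libraries. In NSC bait 2 had the highest value, at 16.0%, before the CTCF bait at 15.4% and bait 1 at 15.0%.

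The position of the UMIs inside the segment does not depend on the region's total. In all 3 baits a smaller part of the segment's UMIs lay in Pccb in NSC than in ESC, and a larger part lay in Ppp2r3a. From bait 1, Pccb took 24.8% ± 1.28 (SD, n = 2) of the segment's UMIs in ESC, and in NSC 18.5% ± 0.979 (SD, n = 2). By library these values were 23.8%, 25.7%, 25.8% and 24.1% in ESC and 19.1%, 17.8% and 19.3% in NSC, with no overlap. Ppp2r3a took 43.5% ± 3.66 in ESC and 49.7% ± 1.21 in NSC (SD, n = 2 each). By library it took 46.7%, 40.1%, 41.7% and 45.4% in ESC and 48.8%, 50.6% and 49.0% in NSC. For both genes the samples did not overlap, and the two-sided exact permutation p was 0.333, the smallest possible. For Ppp2r3a, ESC minus NSC was -2.83 percentage points within the first batch and -9.72 within the second.

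From bait 2, Pccb took 26.1%, 28.2% and 30.9% of the segment's UMIs in ESC and 21.5% in NSC. Ppp2r3a took 40.1%, 34.7% and 29.5% in ESC and 46.6% in NSC, with an NSC interval of 43.1% to 50.1%. Against the tied ESC replicate 1 alone, ESC minus NSC was 4.61 percentage points for Pccb and -6.48 for Ppp2r3a, smaller in size than the 6.89 and -11.8 from the ESC mean. Of the CTCF bait UMIs, Pccb took 24.7% and 28.8% in ESC and 21.2% in NSC, and Ppp2r3a 51.4% and 49.3% in ESC and 55.0% in NSC. With each end counted once, ESC minus NSC for this bait was 0.355 percentage points for Pccb and -0.345 for Ppp2r3a. Counted so, the Pccb difference was also smaller from the other baits, at 3.42 in place of 6.36 from bait 1 and 4.17 in place of 6.89 from bait 2. Msl2 and the gap between Pccb and Msl2 moved less from bait 1. Msl2 took 11.3% ± 1.68 and 11.4% ± 0.0231 of the segment's UMIs, and the gap 19.0% ± 0.731 and 19.2% ± 0.245, in ESC and NSC (SD, n = 2 each), and both overlapped. From bait 2 the gap took 24.1% ± 2.74 (SD, n = 3) in ESC and 18.3% in NSC.

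**Figure D2:**
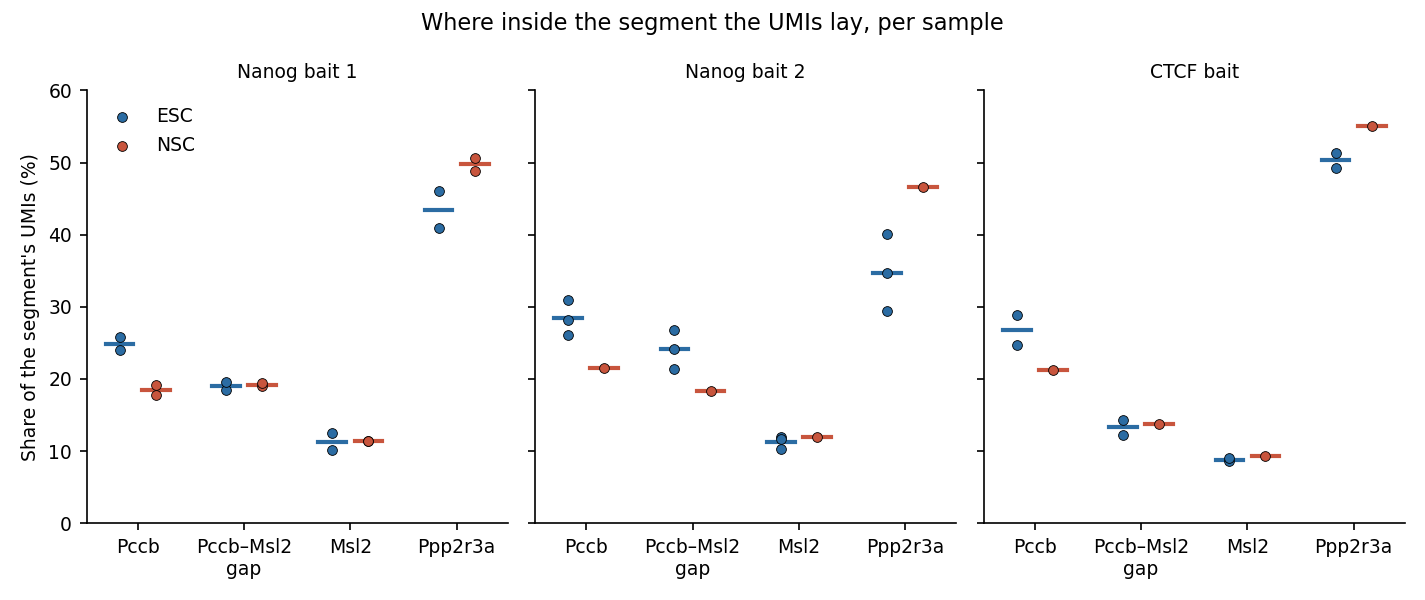
Percentage of the segment's UMIs in each of its parts, per independent sample (points, with lines at the mean) for ESC (blue) and NSC (red), in 1 panel per bait. In each panel the Pccb points of NSC lie below those of ESC and the Ppp2r3a points lie above, for bait 1 at 18.5% against 24.8% and at 49.7% against 43.5%.

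The genes were also compared as shares of region UMIs from bait 1. Pccb held 2.13% ± 0.0795 in ESC and 2.20% ± 0.183 in NSC (SD, n = 2 each), and the samples overlapped. Msl2 held 0.963% ± 0.0583 in ESC and 1.36% ± 0.0437 in NSC, 1.41-fold higher. Ppp2r3a held 3.75% ± 0.644 and 5.92% ± 0.0341, 1.58-fold higher in NSC. For Msl2 and Ppp2r3a the samples did not overlap, with an exact permutation p of 0.333. The NSC value over the ESC mean was 1.05, 1.47 and 1.85 for Pccb, Msl2 and Ppp2r3a from bait 2, and 0.839, 1.12 and 1.16 from the CTCF bait. By these means the ratio was lowest for Pccb, the gene nearest to the bait, and highest for Ppp2r3a, the farthest. Within the first batch of bait 1 Msl2 went from 0.921% in ESC to 1.39% in NSC and Ppp2r3a from 4.21% to 5.94%, so that the ratio was higher for Msl2, and within the second from 1.00% to 1.33% and from 3.29% to 5.89%. Against the most closely tied ESC replicate 1 alone, for baits 2 and CTCF, Pccb was again the lowest, but Msl2 and Ppp2r3a were nearly level. From bait 2 they then stood at 1.00% and 3.89% in ESC against 1.52% and 5.94% in NSC, and from the CTCF bait at 1.30% and 7.71% against 1.48% and 8.76%. Counted per cut site, Pccb had the higher level throughout, at 0.251% of region UMIs per 10 sites against 0.100% for Ppp2r3a in bait 1 ESC, and 0.259% against 0.158% in bait 1 NSC.

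The segment was then divided into 13 windows of 20 kb, and edgeR's quasi-likelihood test was fitted to all windows of the region, with region UMIs as library size. Log2 fold changes are for ESC over NSC, so a negative value is higher in NSC. From bait 1 all 13 windows were negative, and 5 passed an adjusted p of 0.05 (edgeR, Benjamini-Hochberg), each higher in NSC. Over all windows of the region, 72 of 100 were negative and 19% passed in this direction. The median over the segment was -0.51 and over all 100 windows -0.47, so the segment as a whole moved much as the region did. In 11 of the 13 windows both NSC samples were above both ESC samples, and over all windows this held for 59%.

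The 5 windows were the one with the 5′ end of Msl2, the one in the body of Msl2, and 3 in Ppp2r3a. The window of the Msl2 5′ end (chr9:101060001-101080000) held 0.648% and 0.811% of region UMIs in the ESC samples and 1.05% and 1.07% in the NSC samples (log2 fold change -0.61, SE 0.15, edgeR adjusted p = 0.0401). The next window (chr9:101080001-101100000) holds 6.5 kb of unknown bases in the assembly, which can give no counts in either cell type. Its shares were 0.487% and 0.503% in ESC and 0.676% and 0.831% in NSC, with a log2 fold change of -0.62. In Ppp2r3a, the window at chr9:101160001-101180000 had the largest change, with 0.347% and 0.478% in ESC and 0.799% and 0.815% in NSC (a log2 fold change -0.88, SE 0.19, edgeR adjusted p = 0.0401). The window at chr9:101200001-101220000 held 0.487% and 0.488% in ESC and 0.791% and 0.792% in NSC (a log2 fold change -0.72), and the one at chr9:101120001-101140000 changed by -0.66. The samples of ESC and NSC did not overlap in any of these 5 windows.

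The window at chr9:101180001-101200000, with the start of the shorter Ppp2r3a transcript, had the second largest change from bait 1. It held 0.259% and 0.543% in ESC and 0.783% and 0.815% in NSC (a log2 fold change -0.82, SE 0.28, edgeR adjusted p = 0.0651), and did not pass. The windows with the 5′ ends of the other genes did not pass from bait 1, and in both of them the NSC samples lay above the ESC samples. The window of the Pccb 5′ end (chr9:101020001-101040000) had a log2 fold change of -0.13 (SE 0.12), with 1.05% and 1.20% in ESC and 1.21% and 1.29% in NSC. The window of the Ppp2r3a 5′ end (the last 20 kb of the segment) had one of -0.49 (SE 0.28), with 0.274% and 0.418% in ESC and 0.443% and 0.567% in NSC.

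Which of these windows passed depended on the scale and on single libraries. With TMM factors, which assume that most windows of the region do not change, the median of all bait 1 windows was -0.10. None of the 13 passed, with 1 at an unadjusted p under 0.05. Over the region 10 of 100 passed as higher in NSC and 22 as higher in ESC. With all UMIs of the library as library size the median of all windows was 0.23 and that of the segment 0.20. Of the 13 windows 2 were negative, against 33 of 100 over the region. Again none of the 13 passed, with 2 at an unadjusted p under 0.05 (DESeq2 called 0 as well). Over the region 3 of 100 passed as higher in NSC and 22 as higher in ESC, and with DESeq2 2 and 22. No window passed without ESC replicate 3, without NSC replicate 2 or with the batch as a block, although the changes were as large, with medians of -0.51, -0.61 and -0.53 and all 13 windows negative in each. Without ESC replicate 3 or with the batch as a block, no window of the whole region passed either. Without ESC replicate 1, 3 windows of the segment passed, with 14 of 100 over the region higher in NSC. With the UMIs of the window's distance band as library size, the Msl2 5′ end window still passed, at -0.59, while the 3 called windows of Ppp2r3a moved to 0.13, -0.08 and 0.08. Over the region 3 of 100 passed as higher in NSC on this scale. With each end counted once the 5 windows were at -0.25, 0.00, -0.27, -0.25 and -0.14, and no window of the region passed.

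From bait 2 the fit used 3 ESC libraries and 1 NSC library, which was assumed to vary like the ESC libraries. Of the 13 windows 11 were negative, against 74 of all 100, with a median of -0.58 against -0.76 over all windows. The window from 101.14 Mb to 101.16 Mb in Ppp2r3a passed, with 0.471% to 0.869% of region UMIs in ESC and 1.31% in NSC (a log2 fold change -0.86, SE 0.24, edgeR adjusted p = 0.0101). Over the region 3% of windows passed in this direction. Without ESC replicate 1, 7 windows of the segment passed as higher in NSC, with 45 of 100 over the region in that direction, and without ESC replicate 3 none of the segment did. The call was also lost with TMM factors (log2 fold change -0.40), all UMIs as library size (-0.45), DESeq2 (-0.16), ends counted once (-0.50) and 10 kb windows. With the UMIs of the same distance band as library size the change turned to 0.19. The NSC library was above all ESC libraries in 11 of the 13 windows, against 63% of all windows. The 3 windows nearest to the bait differed least, with log2 fold changes of 0.00, -0.11 and 0.02.

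For the CTCF bait 10 of the 13 windows were negative, against 65 of all 101, with a median of -0.15 against -0.11 over all windows. The window with the start of the shorter Ppp2r3a transcript (chr9:101180001-101200000) passed, at 0.747% and 0.868% in ESC and 1.18% in NSC (a log2 fold change -0.48, SE 0.17, edgeR adjusted p = 0.0465). Over the region 3.96% of windows passed in this direction. The call rests on 1 NSC library, assumed to vary like the ESC libraries. It was lost with TMM factors (log2 fold change -0.37, edgeR adjusted p = 0.239), all UMIs as library size (-0.17), DESeq2 (-0.39), ends counted once (-0.26), distance bands (-0.25) and 10 kb windows. In 6 of the 13 windows the NSC library was above both ESC libraries, against 47.5% of all windows. In the first window of the segment, in the Pccb body, it was below both, with 2.54% and 3.01% in ESC and 2.15% in NSC (a log2 fold change 0.33, SE 0.24, edgeR adjusted p = 0.539).

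Whether the change from ESC to NSC differed between baits was tested as an interaction in a joint fit. None of the 13 windows passed in any of the 3 comparisons of baits (edgeR quasi-likelihood test). The whole region was much the same. Of all windows tested for both baits, 0 of 92 passed between the CTCF bait and bait 1. Between the CTCF bait and bait 2, 2 of 91 passed, and between baits 2 and 1, 0 of 99. Between the CTCF bait and bait 1, 4 windows had an unadjusted p under 0.05, and the smallest adjusted p was 0.175. Between the CTCF bait and bait 2 there was 1 such window, and between baits 2 and 1 there was none, with smallest adjusted p-values of 0.241 and 0.761.

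**Figure D3:**
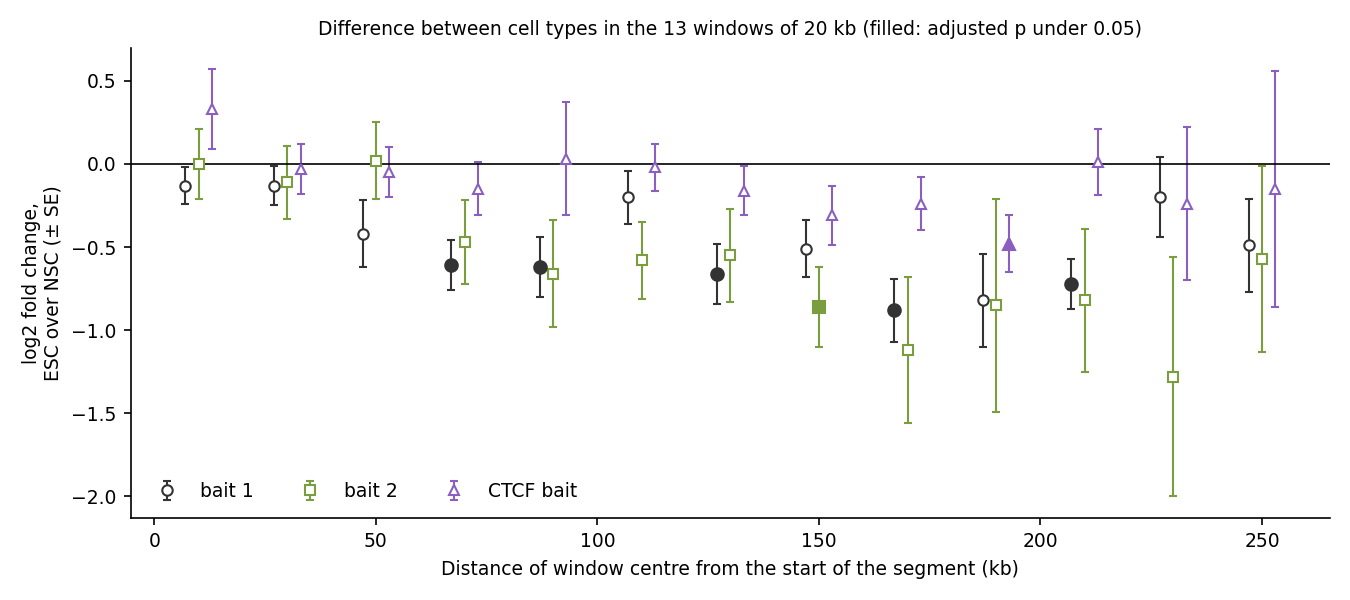
Log2 fold change of ESC over NSC, with its SE, in the 13 windows of the segment against distance from its start in kb, for bait 1 (circles), bait 2 (squares) and the CTCF bait (triangles), with filled symbols for an adjusted p under 0.05. Bait 1 lies below 0 in every window, down to -0.88, and the filled symbols are 5 for bait 1 and 1 for each other bait. The CTCF bait lies closer to 0 than the other baits in most windows, though not in the first, where it is at 0.33.

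The profile inside the segment had a shared shape. UMIs per window were highest at its start in Pccb and fell along it, and 2 windows inside it were local maxima by group mean from every bait in both cell types. One was the window from 101.10 Mb to 101.12 Mb, where Msl2 and Ppp2r3a meet, at 0.867% in ESC and 0.954% in NSC from bait 1, 0.789% and 1.26% from bait 2, and 1.33% and 1.38% from the CTCF bait. Its neighbour toward Msl2 is the window with unknown bases, and per cut site it was below that neighbour from bait 1 in NSC (0.180% against 0.215% per 10 sites). The same held from bait 2 in both cell types, at 0.149% against 0.163% in ESC and 0.237% against 0.246% in NSC. The other, in the body of Ppp2r3a, was the window from 101.14 Mb to 101.16 Mb, which the first exceeded in ESC from baits 1 and 2. The first window held 1.19% of region UMIs from bait 1 in ESC and 1.28% in NSC, the highest of the 13 in both cell types. Counted per cut site it led in ESC only, and in NSC the Msl2 5′ end window was highest, at 0.331% per 10 sites against 0.267% in the first. From bait 2 it was again the highest, at 1.67% in ESC and 1.64% in NSC. With the CTCF bait it led in ESC, at 2.78%. In NSC the same bait had its highest share in the window from 101.14 Mb to 101.16 Mb in Ppp2r3a, at 2.34%, above the first window at 2.15%. The second highest window from baits 1 and 2 was that of the Pccb 5′ end, and the third was the following one, between Pccb and Msl2, except from bait 2 in NSC, where it was the one from 101.14 Mb.

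The window from 101.14 Mb to 101.16 Mb stood above the mean of its neighbours in every sample, though not above each neighbour, since the one at 101.12 Mb was higher in bait 2 ESC replicate 1 (0.859% against 0.781%). Its share was 1.21 to 2.24 times that mean in all 11 independent samples, from 1.22 to 2.24 times in the 7 ESC samples and from 1.21 to 1.94 times in the 4 NSC samples. Of the 7 windows that overlap no protein-coding gene other than Ppp2r3a, it held the highest share in 10 of 11 samples. It has 49 cut sites against 67 and 63 in its neighbours, so the ratio was larger per cut site, at 1.61 to 3.0, while the window led those 7 windows per cut site in 9 of 11 samples. From bait 1 it held 0.753% and 0.852% in ESC and 1.04% and 1.35% in NSC (a log2 fold change -0.51, edgeR adjusted p = 0.0626). The CTCF bait gave it 1.85% and 2.01% in ESC and 2.34% in NSC (a log2 fold change -0.31, edgeR adjusted p = 0.328). The window was singled out after its values were seen, and these ratios are given as a description. Across pairs of samples, the 13 shares correlated with r of 0.76 to 0.98 within a bait and 0.54 to 0.96 between baits, over windows that share distance from the bait and density of cut sites.

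**Figure D4:**
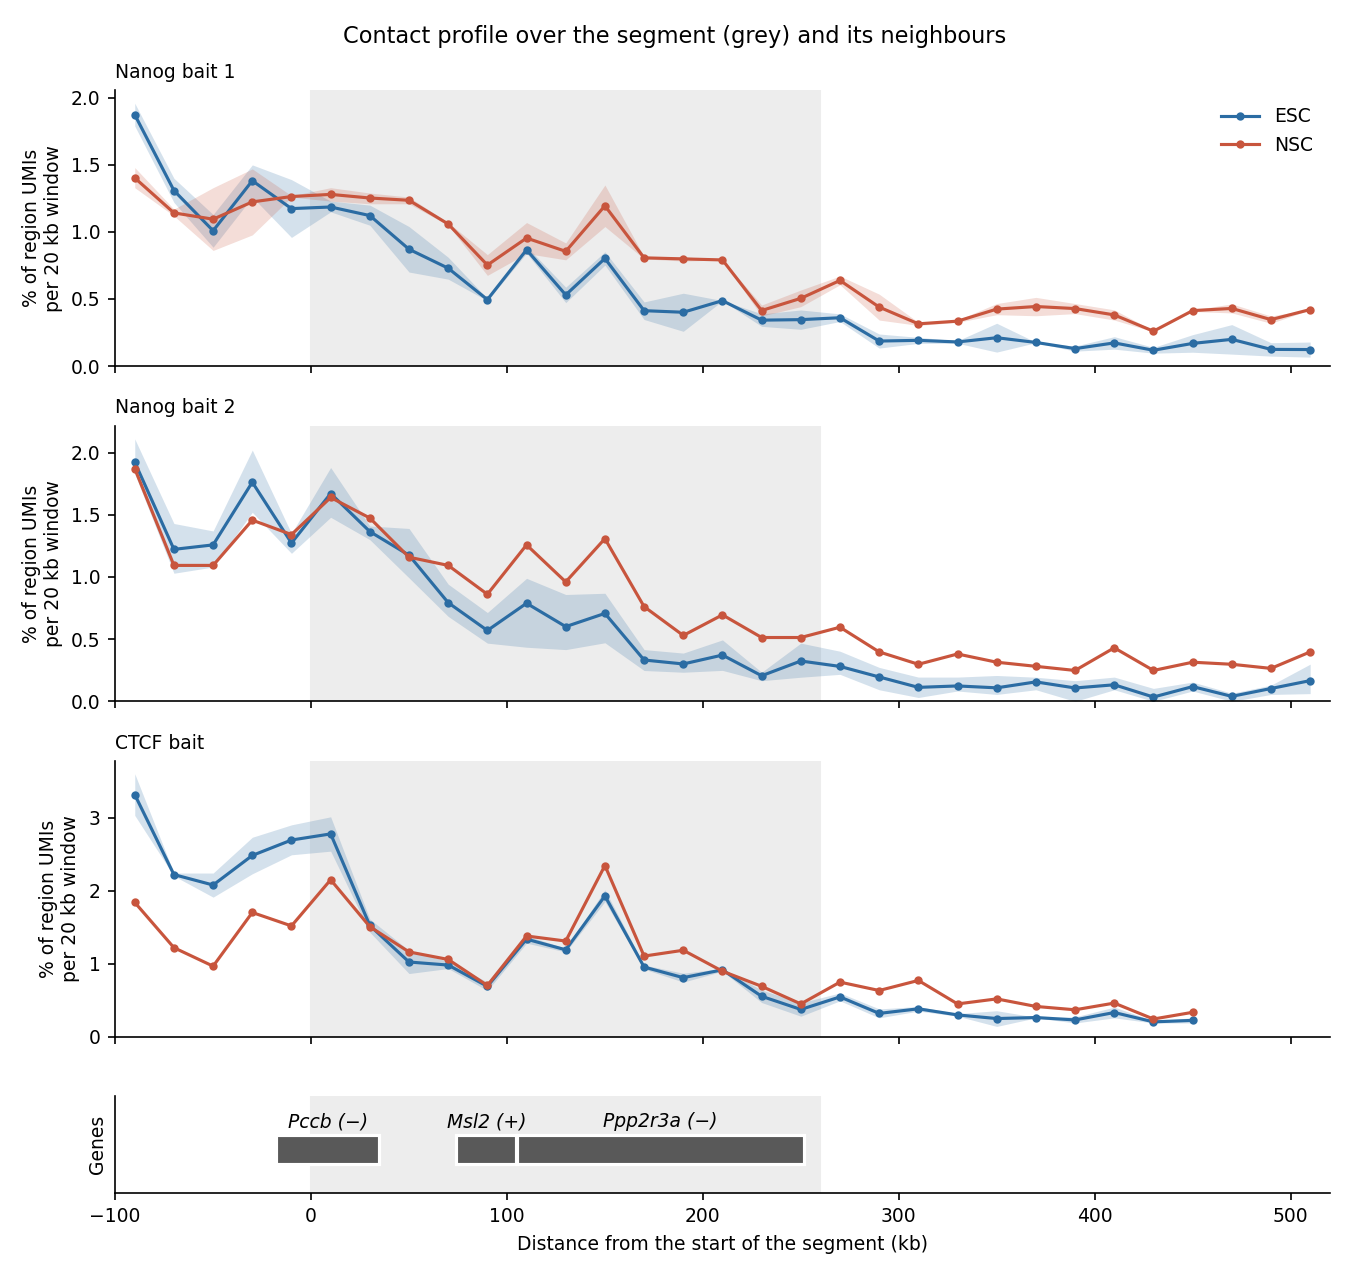
Percentage of region UMIs per 20 kb window against distance from the start of the segment in kb, for ESC (blue) and NSC (red) in 1 panel per bait, with lines at group means, shading from the lowest to the highest sample, and the 3 genes below. The segment is shaded grey, and the window centred 150 kb into it, in Ppp2r3a, has a group mean above those of its neighbours from every bait, reaching 2.34% in NSC from the CTCF bait, whose profile ends at its limit of 1 Mb.

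The segment lies between a border stretch of 100 kb that holds the 3′ ends of Stag1 and Pccb (100.90 Mb to 101.00 Mb) and a stretch as long as itself beyond Ppp2r3a (101.26 Mb to 101.52 Mb). Contact density, in percent of region UMIs per 100 kb, was compared over the 3. From bait 1 in ESC it was 6.75 ± 0.639 in the border stretch, 3.30 ± 0.293 in the segment and 0.900 ± 0.296 beyond it (SD, n = 2). In NSC it was 6.13 ± 0.166, 4.58 ± 0.138 and 2.03 ± 0.133 (SD, n = 2). The density fell across the segment in both cell types, and less in NSC. The segment had 0.490 of the border density in ESC and 0.747 in NSC. It had 3.84 ± 0.955 times the density beyond it in ESC, against 2.26 ± 0.217 times in NSC (SD, n = 2 each). The last ratio was 3.17 in ESC and 2.42 in NSC in the first batch, and 4.52 and 2.11 in the second. For both ratios the samples did not overlap, and the exact permutation p was 0.333, the lowest possible. NSC was 1.38-fold above ESC in the segment and 2.25-fold above it beyond the segment, while in the border stretch it was 0.908 of ESC.

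The other baits gave the same order. The segment had 0.479 ± 0.0551 (SD, n = 3) of the border density in ESC and 0.716 in NSC from bait 2, and 0.455 ± 0.0457 (SD, n = 2) and 0.846 from the CTCF bait. With the CTCF bait the density of the border stretch was 12.8 ± 1.31 (SD, n = 2) in ESC and 7.24 in NSC, while that of the segment was 5.79 ± 0.0126 (SD, n = 2) and 6.12. Against the stretch beyond it, where the CTCF bait's region covers 195 kb, the ratio was 6.15 ± 2.28 (SD, n = 3) in ESC and 2.86 in NSC from bait 2, and 3.81 ± 0.792 (SD, n = 2) and 2.43 from the CTCF bait. The ratio of the most closely tied ESC replicate 1 was 3.85 for bait 2 and 3.25 for the CTCF bait.

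Distance from the bait was matched by setting the segment against the stretch at the same distances on the other side of each bait. The segment side held the larger part in every library, from 61.6% to 82.2% of the UMIs of both stretches. From bait 1 it held 72.7%, 76.0%, 74.5% and 72.8% in ESC and 73.8%, 71.0% and 75.0% in NSC, and the libraries overlapped. Over independent samples this was 74.0% ± 1.78 and 72.7% ± 2.38 (SD, n = 2 each, two-sided exact permutation p = 0.667). ESC minus NSC was -1.66 percentage points in the first batch and 4.23 in the second, so that the batches differed in direction, and without NSC replicate 2 the difference of the means was -0.399. From bait 2 the segment side held 77.5%, 82.2% and 82.2% in ESC and 76.5% in NSC, with a gap of 0.978 percentage points from the tied ESC library. The CTCF bait had 70.7% and 77.2% in ESC and 61.6% in NSC, where the NSC interval of 59.6% to 63.6% lay below those of the ESC libraries (69.5% to 72.0% and 74.3% to 80.0%). This gap was 12.4 percentage points from the ESC mean and 9.12 from ESC replicate 1, the library most closely tied to it. For this bait the segment's own share of region UMIs was not lower in NSC, at 15.9% against 15.0% and 15.1% in ESC. The stretch on the other side held a larger part of region UMIs in NSC. It held 1538 of 24766 and 190 of 4282 in ESC, and 863 of 8706 in NSC.

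**Figure D5:**
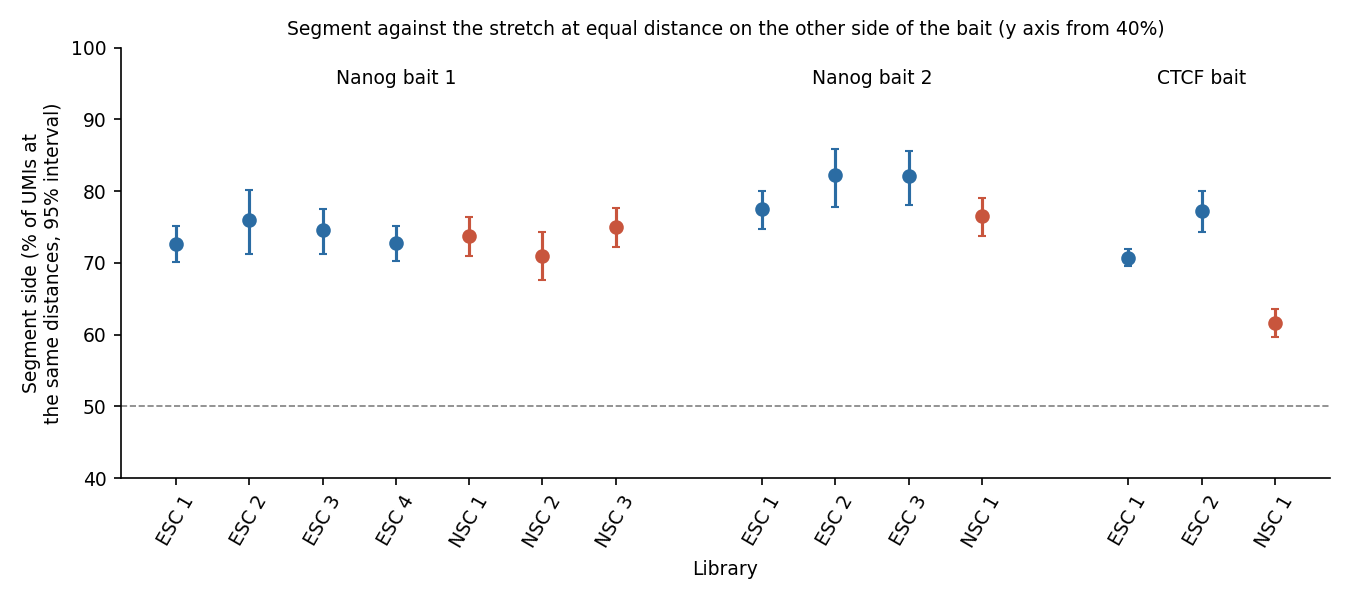
Percentage of UMIs on the segment side, of all UMIs at the same distances on both sides of the bait, for each library with its 95% Wilson interval, ESC in blue and NSC in red, with a dashed line at equal parts. All libraries lie above the line, those of bait 1 overlap between 71.0% and 76.0%, and the CTCF bait NSC library is the lowest at 61.6%.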

How the data were processed

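UMI-4C contacts of the Pccb to Ppp2r3a segment were taken from the 14 libraries. The authors deposited 1 file per library with, for each pair of restriction fragment ends, a count of UMIs, not normalised. Per the submitters' processing notes Bowtie2 and mm10 were used. The version, the rule for collapsing UMIs and the filters are not given in the sources used here. Each pair was listed both ways, so 1 direction was used, and the bait was the commonest end. Every listed end lay at a GATC site of GRCm38 (100%, against 0.507% after a shift of 100 bp). Genes are from GENCODE M21.

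Samples were grouped by the bait, cell type and replicate number in their titles. Repeat libraries (over 50% of the smaller library's ends on other chromosomes shared) were averaged, and libraries sharing over 1% were called tied. Shares were compared by two-sided exact permutation over samples. Counts of UMIs in 20 kb windows with at least 10 UMIs were fitted with edgeR 4.0.16 (limma 3.58.1, R 4.3.3), with averaged counts rounded, and Benjamini-Hochberg adjustment ran over all windows of the region. DESeq2 1.42.0 was an alternative. Scripts were tested on simulated data. Windows were named by a rule: those with a 5′ end of a protein-coding gene, the 3 with the largest share from each bait, the 3 with the largest change from bait 1, and the leading fragment end of each group. The leading end of bait 1 in NSC is not reported here. The members, lists and tests were chosen with earlier results of these data known. The make-up of the segment and the tied libraries were added as comparisons later. Alternatives covered the denominator, the weight of an end, the segment's edges, scaling, window size, repeat libraries, pairing, batch and leaving out each library.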

Additional observations from a re-analysis of the deposited data

Results flagged for a closer look

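Between baits, the samples moved in opposite directions in 1 of the 13 windows, and in another those of 2 baits moved one way while the third bait was at a tie. In the first window of the segment, in the body of Pccb, both NSC samples of bait 1 were above both ESC samples (log2 fold change of ESC over NSC -0.13), while the CTCF bait NSC library was below both ESC libraries (0.33). The difference between these changes was 0.45 on the log2 scale, with an unadjusted p of 0.0468 and an adjusted p of 0.346 (edgeR quasi-likelihood test of the interaction), and did not pass. In the Ppp2r3a window at chr9:101200001-101220000 the log2 fold change was -0.72 from bait 1 and -0.82 from bait 2, with every NSC sample above every ESC sample. From the CTCF bait it was 0.01, with 0.896% and 0.934% of region UMIs in ESC and 0.896% in NSC, so that the NSC library equalled the lower ESC library at this precision. The difference was 0.73 between the CTCF bait and bait 1 (edgeR adjusted p = 0.175) and 0.81 between the CTCF bait and bait 2 (edgeR adjusted p = 0.303). No group held 4 or more independent samples, so single samples were not tested as outliers.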

How the results depend on the processing

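All differences in this paragraph are ESC minus NSC in percentage points. For the segment share, the direction turned over all UMIs (bait 1 0.949, bait 2 0.321, CTCF bait 1.82; for bait 2 it did not turn against the tied ESC replicate 1, at -0.495) and over UMIs on chromosome 9 (bait 1 0.123, CTCF bait 1.24, while bait 2 moved to -0.617). With ends counted once it was 0.215 from the CTCF bait and -2.21 from bait 2. With UMIs 100 kb to 1 Mb away as denominator it was -1.15 from bait 2 and -0.839 from the CTCF bait, and without 20 kb at each edge -1.43 from the CTCF bait. With 7 bait 1 libraries as replicates it was -3.39 for the segment, -0.406 for Msl2 and -2.18 for Ppp2r3a, each at p = 0.0286 by exact permutation, which is the lowest value for 4 libraries against 3. The matched-distance share of bait 1 turned with ends counted once (-0.194), without 20 kb at each edge (-0.161), in the first batch (-1.66) and without NSC replicate 2, and was 4.23 in the second batch. Leaving out 1 library gave -3.56 to -3.23, -3.81 to -3.26 and -0.904 to -0.857 for the segment share, and -0.399 to 1.65, 3.32 to 5.69 and 9.12 to 15.6 for the matched-distance share, from bait 1, bait 2 and the CTCF bait. With each end counted once, an alternative chosen after seeing the data, the Pccb part of the segment went from 6.36, 6.89 and 5.54 to 3.42, 4.17 and 0.355.

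Windows of the segment that passed numbered 5 from bait 1. They were 0 with TMM factors, all UMIs, DESeq2, ends counted once and the batch block (1, 2, 0, 0 and 6 at an unadjusted p under 0.05), 1 with 10 kb windows and with distance bands, 9 with 7 libraries (45 of 100 over the region higher in NSC), and 4 or 3 with averages rounded up or not rounded, a choice made after seeing the data. From bait 2 the 1 window became 7 by Fisher's exact test (36 of 100 over the region higher in NSC), which compares these libraries and covers counting error only, and 0 with TMM factors, all UMIs, DESeq2, ends counted once, 10 kb windows and distance bands (3 of 26 small windows, and otherwise 0, at an unadjusted p under 0.05). From the CTCF bait 1 became 2 by Fisher's exact test and 0 in those 6 settings (1 at an unadjusted p under 0.05 in each of the last 2, and otherwise 0). Leaving out 1 library gave 0 to 5 windows from bait 1 and 0 to 7 from bait 2. For the CTCF bait, leaving out an ESC library leaves no spread to fit.

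Same-numbered bait 1 libraries did not deviate together (r of -0.21, -0.04 and 0.04), so the numbers did not pair the samples. With the replicate number as a block, 9 windows passed (40 of 100 over the region higher in NSC), in a fit of single libraries that counts repeats as separate samples (the batch block on averaged samples passed 0), and the mean paired differences were -3.59 for the segment share, 1.12 for the matched-distance share, and -0.142, -0.406 and -2.32 for Pccb, Msl2 and Ppp2r3a. Precision is limited by 2 independent samples per cell type at bait 1, 1 NSC library elsewhere, and few UMIs per fragment end.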
